A study of Homo sapiens with 30 samples.

Results

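The clustered protocadherins are cell-surface cadherins encoded by 3 neighbouring gene clusters, alpha, beta and gamma, on chromosome 5. They were taken from the gene count tables by symbol, as PCDHA, PCDHB or PCDHG followed by the gene's number, with or without a subgroup letter. This gave 53 of 27630 genes, 15 alpha, 16 beta and 22 gamma. All lie on the plus strand within 0.727 Mb of hg19 chromosome 5. The alpha genes span 140165721 to 140391929, the beta genes 140430961 to 140627801 and the gamma genes 140710252 to 140892548.

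RNA was counted in 8 libraries of HEK293FT, a line derived from human embryonic kidney, with 2 replicates in each of 4 groups. Nuclear RNA and cytosolic RNA came from fractionated cells. The native preparation was RNA recovered by labelling near the lamina, and the fixed preparation was RNA recovered in the same way after fixation with paraformaldehyde (PFA). All 4 groups came from asynchronous cells that had received, by Lipofectamine 2000, a construct of the peroxidase APEX2 joined to lamin B1, and ribosomal RNA was removed before sequencing. The groups held no library from cells without the construct. Positions of lamina-associated domains came from another line, HCT116, a colorectal carcinoma line, as 1 list for each of G1, S and G2. Nothing in the labels says whether the 2 libraries of a group came from separate cultures, so p-values measure the spread between these libraries, which may be technical.

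Each clustered protocadherin gene has its own large first exon, which encodes the extracellular cadherin repeats, the transmembrane segment and part of the intracellular tail. In the alpha and gamma clusters the transcript from each first exon is spliced to the same 3 constant exons, which encode the common end of the tail, while beta genes consist of a single coding exon. Each first exon has its own promoter, and neurons choose among these promoters so that a cell carries a set of isoforms that lets its branches recognise one another. Most of these promoters carry a conserved element with the core letters CGCT, where CTCF binds. The C-type genes at the end of the alpha and gamma clusters are expressed more uniformly between cells than the others.

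Promoters are shown because each first exon is read from its own one, and the genes chosen are those with the most reads of their own in each cluster. RefSeq promoter windows of 300 bases (GRCh38.p14, 250 bases before the start to 50 after it) were matched by symbol for 47 of the 53 genes. Genes holding the core, or a word of 8 bases given below, were counted on both strands. The choice of these words and of the closest stretches used the plus strand alone. The core CGCT was in 46 of these 47 genes and in 71.9% of all 27305 gene symbols with a window, so its presence alone separates little. The word of 8 bases found in most genes of a cluster, with ties given to words holding CGCT, differed between the clusters, and each of the 3 words contains that core. ATGTCGCT was in 9 of 13 alpha genes, in no beta or gamma gene and in 0.282% of all symbols. GTGGCGCT was in 13 of 14 beta genes, in no alpha or gamma gene and in 1.38% of all symbols. GCCGCTGT was in 11 of 20 gamma genes, in no alpha or beta gene and in 1.98% of all symbols. The words were chosen on these windows, so their counts are a description. In the 56-base stretches below, written 5′ to 3′ on the plus strand of GRCh38.p14, capitals mark the 8 bases closest to the word of the cluster.
PCDHA10: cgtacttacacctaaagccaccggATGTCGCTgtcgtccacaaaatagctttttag
PCDHA11: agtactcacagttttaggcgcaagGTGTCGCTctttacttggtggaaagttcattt
PCDHAC2: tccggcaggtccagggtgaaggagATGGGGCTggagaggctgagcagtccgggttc
PCDHB14: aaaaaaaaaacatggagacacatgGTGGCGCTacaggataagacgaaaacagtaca
PCDHB2: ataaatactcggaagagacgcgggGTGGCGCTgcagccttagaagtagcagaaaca
PCDHGA11: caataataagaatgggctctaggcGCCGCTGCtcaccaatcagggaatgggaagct
PCDHGC3: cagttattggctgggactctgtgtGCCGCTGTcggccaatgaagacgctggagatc
PCDHGB5: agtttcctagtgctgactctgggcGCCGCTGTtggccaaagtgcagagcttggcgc

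The PCDHA10 stretch is chr5:140855829-140855884, that of PCDHA11 is chr5:140868871-140868926 and that of PCDHAC2 is chr5:140966326-140966381. The beta stretches are chr5:141223251-141223306 for PCDHB14 and chr5:141094532-141094587 for PCDHB2. The gamma stretches are chr5:141420962-141421017 for PCDHGA11, chr5:141475870-141475925 for PCDHGC3 and chr5:141397853-141397908 for PCDHGB5. The capitals began 44 bases before the gene start in PCDHA10 and 62 in PCDHA11, 68 in PCDHB14 and 59 in PCDHB2, and 65, 72 and 70 in PCDHGA11, PCDHGC3 and PCDHGB5. PCDHA11 and PCDHGA11 had 1 mismatch to their cluster's word. PCDHAC2, a C-type gene, had 2 mismatches at its closest stretch on the plus strand, 126 bases before the start, and that stretch does not hold CGCT. A closer stretch on the minus strand was not looked for. The other 5 stretches matched in full.

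Total counts ran from 2321291 in fixed replicate 2 to 8557777 in native replicate 1. Levels are given as CPM, counts scaled by the total of the library, and 3 counts, equal to 0.351 to 1.29 CPM, were taken as the floor. Across 16533 genes, log2(CPM + 1) of the 2 fixed libraries correlated at 0.925, below the 0.964 to 0.974 of the other 3 pairs. MALAT1 and NEAT1 were higher and GAPDH, ACTB and EEF1A1 lower in nuclear than in cytosolic RNA, and LMNB1, the gene in the construct, was higher in both labelled preparations than in both fractions. All 7 HEK293FT markers passed the filter on low counts, at a summed 79.9 to 395 CPM. The K562 globin genes HBG1, HBG2 and HBE1, the leukocyte genes PTPRC and CD3E and the fibroblast gene COL1A2 had no count in any library. The 6 HCT116 markers stood at a summed 22.4 to 53.8 CPM, of which CDX2 had 60 to 313 counts, EPCAM 7 to 21, LGALS4 at most 9, and CDX1 and CEACAM5 at most 1. VIL1 had 66 and 74 counts in nuclear RNA and at most 14 in the other libraries. The 5 neuronal markers were all detected, at a summed 57.5 to 62.4 CPM in the nuclear, 24.3 to 31.0 in the cytosolic, 45.8 to 52.7 in the native preparation and 40.5 to 54.3 in the fixed libraries, and 1 of them, RBFOX3, was called higher in nuclear than in cytosolic RNA.

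The rows of the alpha and gamma genes are not separate measurements. The 15 alpha genes share 3 exon blocks of 59, 89 and 2718 bases, at 140358534 to 140358592, 140362060 to 140362148 and 140389212 to 140391929 (hg19). The 22 gamma genes share blocks of 59, 89 and 2031 bases, at 140874374 to 140874432, 140884960 to 140885048 and 140890514 to 140892544. The counting assigned a read in these blocks to every gene that holds them. The lowest row of a cluster is therefore the most that the shared blocks can have contributed in that library, and the reads of a gene above it, called its own reads here, come from exon sequence the others lack and are a lower limit. In cytosolic replicate 2, 18 of 22 gamma rows held the same 10 counts. The lowest row multiplied by the number of genes made up 71.9% to 87.1% of the summed alpha rows and 73.4% to 92.8% of the summed gamma rows over the 8 libraries.

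**Figure D1:**
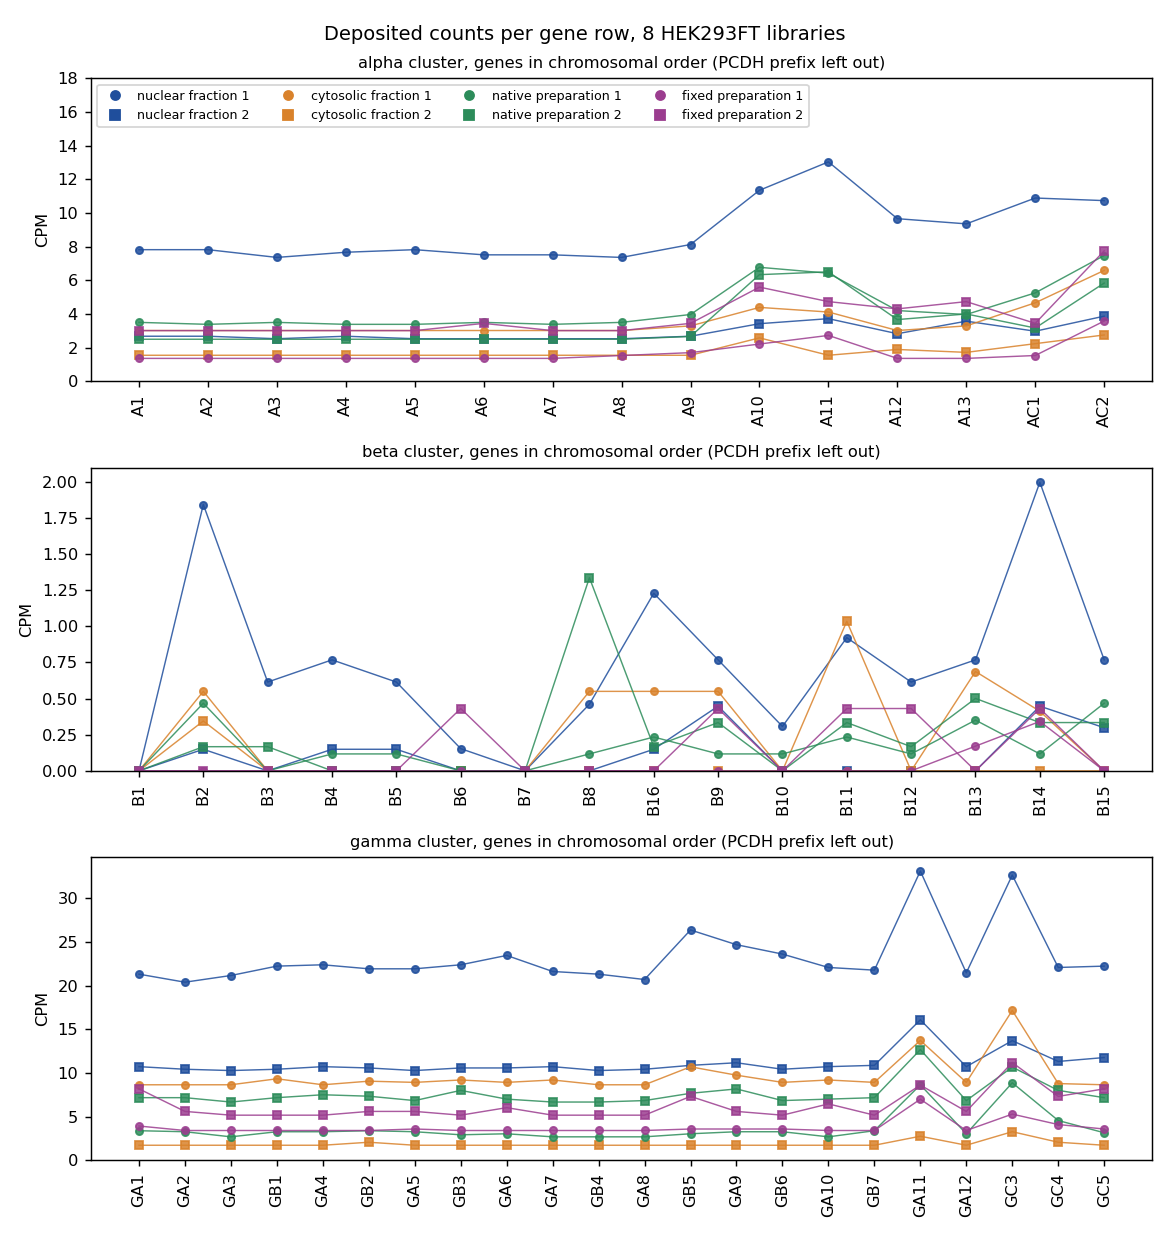
CPM (vertical axis) of each clustered protocadherin gene (horizontal axis, in chromosomal order) in the 8 libraries, with 1 panel per cluster, colours for the 4 groups and circles and squares for replicates 1 and 2. Within a library most alpha and gamma rows lie on a flat line, with peaks at PCDHA10, PCDHA11, PCDHAC2, PCDHGA11 and PCDHGC3, and nuclear replicate 1 lies highest for the alpha and gamma genes.

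The level of the constant exons of the gamma cluster, taken as the lowest gamma row, was 20.4 and 10.3 CPM in nuclear RNA (133 and 69 counts) and 8.65 and 1.72 CPM in cytosolic RNA (63 and 10 counts). In the native preparation it was 2.69 and 6.67 CPM (23 and 40 counts), and in the fixed preparation 3.41 and 5.17 CPM (20 and 12 counts). Both nuclear libraries lay above the other 6, although the 95% Wilson interval of nuclear replicate 2, 8.13 to 13.0 CPM, overlapped that of cytosolic replicate 1, 6.76 to 11.1 CPM. These intervals cover counting error alone, since without molecular identifiers several reads can come from 1 molecule. In bulk libraries, fewer cells with the RNA and less RNA per cell cannot be told apart.

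The level of the constant exons of the alpha cluster was 7.36 and 2.53 CPM in nuclear RNA, 3.02 and 1.55 in the cytosolic, 3.39 and 2.50 in the native preparation and 1.37 and 3.02 in the fixed preparation, from 7 to 48 counts. Nuclear replicate 1 lay above the rest, and nuclear replicate 2 lay within the range of the other groups.

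The beta genes, the single-exon members, were close to the limit of detection. Their 16 rows summed to 77 and 12 counts in nuclear RNA, 24 and 8 in the cytosolic, 22 and 23 in the native preparation and 3 and 5 in the fixed preparation. As CPM these sums are 11.8 and 1.79, 3.30 and 1.38, 2.57 and 3.84, and 0.512 and 2.15. Above the floor were 11 beta genes in nuclear replicate 1 and 0 in nuclear replicate 2. PCDHB1 and PCDHB7 had no count in any library. The highest was PCDHB14, with 13 and 3 counts in nuclear RNA, 3 and 0 in the cytosolic, 1 and 2 in the native preparation and 2 and 1 in the fixed preparation. PCDHB2 had 12 and 1, 4 and 2, 4 and 1, and 0 and 0 counts in the same order. PCDHB11 had 6 and 0, 0 and 6, 2 and 2, and 0 and 1. No beta gene passed the filter, and none was tested.

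Reads of their own came mainly from a few genes. In the gamma cluster, which encodes the isoforms of 3 subgroups, A, B and C, PCDHGA11 and PCDHGC3 ranked first and second, in either order, in 8 of 8 libraries. PCDHGA11 had 83 and 39 own reads in nuclear RNA, 37 and 6 in the cytosolic, 51 and 36 in the native preparation and 21 and 8 in the fixed preparation, 25.5% of all own reads of the cluster. PCDHGC3, a C-type gene, had 80 and 23, 62 and 9, 53 and 24, and 11 and 14 in the same order, 25.0% of the cluster. Together they held 557 of 1102 own gamma reads. Per kilobase of own exon (3117 bases in PCDHGA11, 2794 in PCDHGC3) the pair led in 7 libraries, at up to 4.09 and 4.39 CPM per kb in nuclear replicate 1. In fixed replicate 2 PCDHGA1 took second place. Next came PCDHGB5 with 73 own reads over the 8 libraries, PCDHGA9 with 58, and the C-type genes PCDHGC4 with 54 and PCDHGC5 with 37.

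The balance between the leading pair differed from library to library. PCDHGC3 made up 49.1% and 37.1% of their joint own reads in nuclear RNA and 62.6% and 60.0% in cytosolic RNA. It made up 51.0% and 40.0% in the native preparation and 34.4% and 63.6% in the fixed preparation. The cytosolic shares lay above the nuclear ones, but the Wilson interval of cytosolic replicate 2, 35.7% to 80.2%, took in both nuclear values. The 2 fixed libraries spanned the range of the other 6.

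In the alpha cluster the own reads lay at the end nearest the constant exons. The 8 genes PCDHA1 to PCDHA8 held 22 of 549 own reads, 4.01%, and the 7 genes from PCDHA9 to PCDHAC2 the other 527, a split drawn after the values were seen. PCDHAC2, the C-type gene nearest the constant exons, had 22 and 9 own reads in nuclear RNA, 26 and 7 in the cytosolic, 35 and 20 in the native preparation and 13 and 11 in the fixed preparation. PCDHA11 had 37 and 8, 8 and 0, 26 and 24, and 8 and 4. PCDHA10 had 26 and 6, 10 and 6, 29 and 23, and 5 and 6. PCDHAC2 held 26.0%, PCDHA11 20.9% and PCDHA10 20.2% of the own alpha reads, and PCDHAC1, the other C-type gene, held 64 reads. PCDHAC2 and PCDHA10 were among the 4 highest in 8 of 8 libraries and PCDHA11 in 7. First exons are close paralogs, and the headers name no option for reads that map to several places, so reads common to several first exons may be missing or split, and such rows are uncertain.

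**Figure D2:**
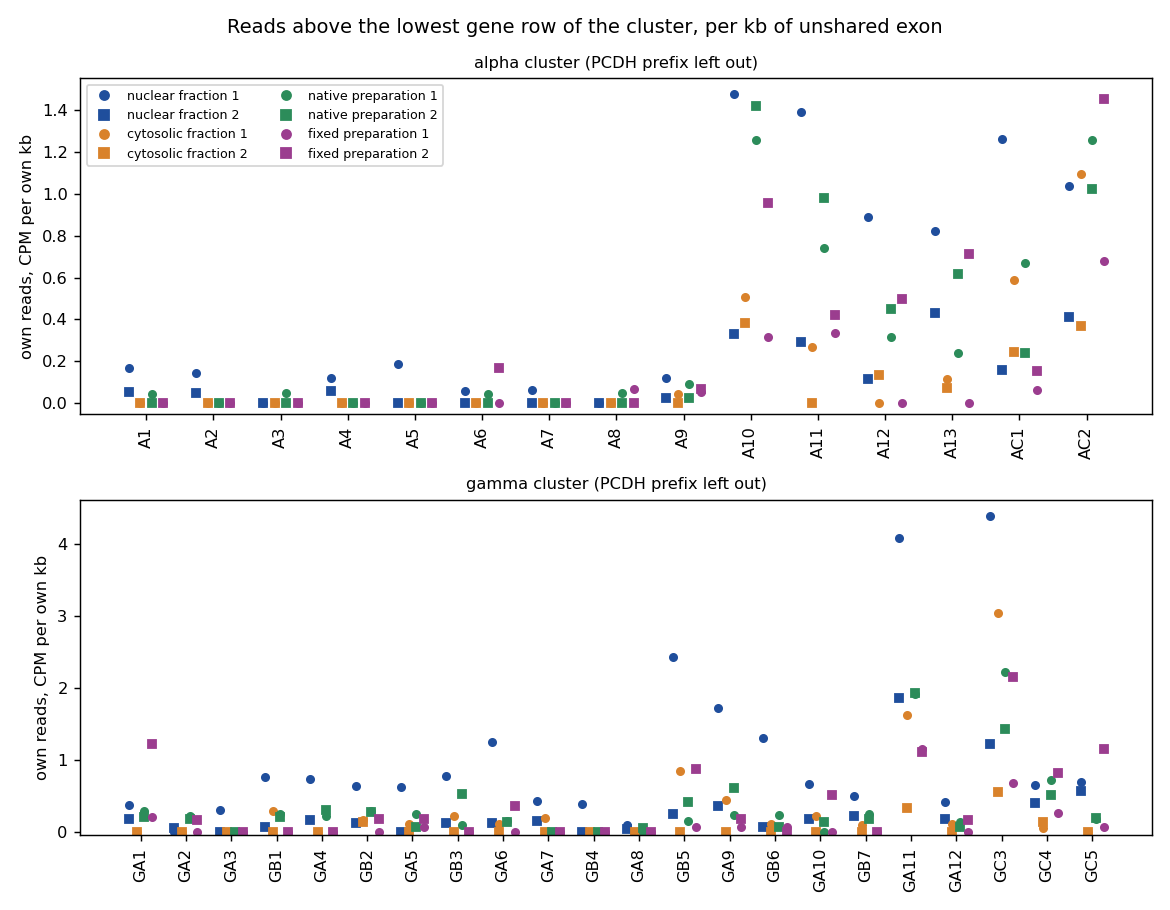
Reads above the lowest row of the cluster, as CPM per kilobase of exon that no other gene of the cluster shares (vertical axis), for each alpha gene (top) and gamma gene (bottom) in chromosomal order, with colours for the groups and circles and squares for replicates 1 and 2. PCDHGA11 and PCDHGC3 lead the gamma cluster, and alpha values stay below 0.2 from PCDHA1 to PCDHA9 and reach above 1 at PCDHA10, PCDHA11, PCDHAC1 and PCDHAC2.

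Added over all genes of a cluster, the own exons were covered more densely than the constant exons, which does not hold for each single gene. In nuclear replicate 1 PCDHGC3, the densest gamma gene, had 4.39 CPM per kb of own exon against 9.37 in the constant exons. In native replicate 1 it had 2.22 against 1.23. Own reads per kilobase, added over the genes, were 2.17 to 5.45 times the density of the constant exons in the alpha cluster and 1.33 to 6.27 times in the gamma cluster over the 8 libraries. The alpha ratio was 3.01 and 2.17 in the nuclear, 2.48 and 2.22 in the cytosolic, 4.02 and 5.45 in the native preparation and 3.18 and 4.21 in the fixed libraries. Both labelled preparations lay above both fractions in this ratio, though fixed replicate 1, at 3.18, was close to nuclear replicate 1, at 3.01. The alpha constant exons held only 8 and 7 counts in the fixed libraries and 9 in cytosolic replicate 2. The gamma ratio was 2.48 and 1.33, 1.92 and 1.47, 6.27 and 2.43, and 1.68 and 3.81 in the same order, and there the groups overlapped. These ratios rest on own reads that are lower limits and were not tested.

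The nuclear fraction was compared with the cytosolic one to ask where RNA of these genes was more abundant. PCDHGA11 rose from 8.38 ± 7.06 normalised CPM in the cytosolic to 26.1 ± 10.6 in nuclear RNA (SD, n = 2), a log2 ratio of 1.60 (SE 0.52, edgeR adjusted p = 0.0231). In edgeR's quasi-likelihood test across 16504 genes, 20 of 22 gamma rows were called higher in nuclear RNA at an adjusted p under 0.05, beside 26.1% of all genes tested. The gamma rows repeat the constant exons and are largely a single measurement, so the 20 calls are not calls of separate genes. The median gamma log2 ratio was 1.61, with a range of 1.21 to 1.73, beside 0.13 for all genes. PCDHGC5 had the largest, 1.73 (SE 0.60, adjusted p = 0.0310), followed by PCDHGA6, PCDHGB6 and PCDHGA4, each at 1.69, and PCDHGA9 at 1.66. PCDHGC4 was called at 1.63, and the values of PCDHGB3 and PCDHGB7 were 1.61 and 1.63, also called.

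Not called were PCDHGB5, at 1.60 (edgeR adjusted p = 0.0554), and PCDHGC3, at 1.21 (SE 0.55, adjusted p = 0.0850). Without nuclear replicate 1, and again without cytosolic replicate 2, 0 clustered protocadherins were called, and without nuclear replicate 2 there were 13. Scaling by total counts alone left 1.

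None of the 15 alpha rows was called between the fractions by edgeR. Their median log2 ratio was 1.12, with a range of 0.63 to 1.53, and 1 had an unadjusted p under 0.05. The DESeq2 Wald test also called 0 alpha rows, in this and in the other 5 comparisons. PCDHA11 had 1.53 (SE 0.61, adjusted p = 0.0522), PCDHA10 1.04, PCDHAC1 0.97 and PCDHAC2 0.63. The normalised CPM of PCDHA11 was 8.76 ± 6.32 in nuclear and 2.96 ± 1.49 in cytosolic RNA (SD, n = 2), with nuclear replicate 1 the higher of its pair.

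Because the gamma rows repeat the constant exons, the fit was made again with 1 row for the constant exons of each cluster and the own reads of each gene as separate rows. Of the 12 such rows that passed the filter, 4 were called higher in nuclear RNA, again beside 26.1% of all genes. The gamma constant exons had a log2 ratio of 1.58 (SE 0.60, edgeR adjusted p = 0.0450), and the own reads of PCDHGA11 had 1.60 (SE 0.60, adjusted p = 0.0421). The own reads of PCDHA11 had 2.52 (SE 0.98, adjusted p = 0.0484), from 37 and 8 in nuclear and 8 and 0 in cytosolic RNA. The deposited row of PCDHA11 tied with the lowest alpha row in cytosolic replicate 2, so the 0 there is by construction and this ratio is uncertain. The fourth row was that of PCDHGC5, with 12 and 10 own reads in nuclear RNA (adjusted p = 0.0161). Its deposited row tied with the lowest gamma row in both cytosolic libraries, so its own reads there are 0 by construction and no fold is given.

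Other rows were not called. PCDHGC3 had a log2 ratio of 0.65 (SE 0.70, edgeR adjusted p = 0.464) on its own reads, PCDHA10 0.96 (SE 0.79) and PCDHAC2 -0.02 (SE 0.68, adjusted p = 0.979). The alpha constant exons had 1.08 (SE 0.65, adjusted p = 0.187). Differences between these genes were not tested.

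**Figure D3:**
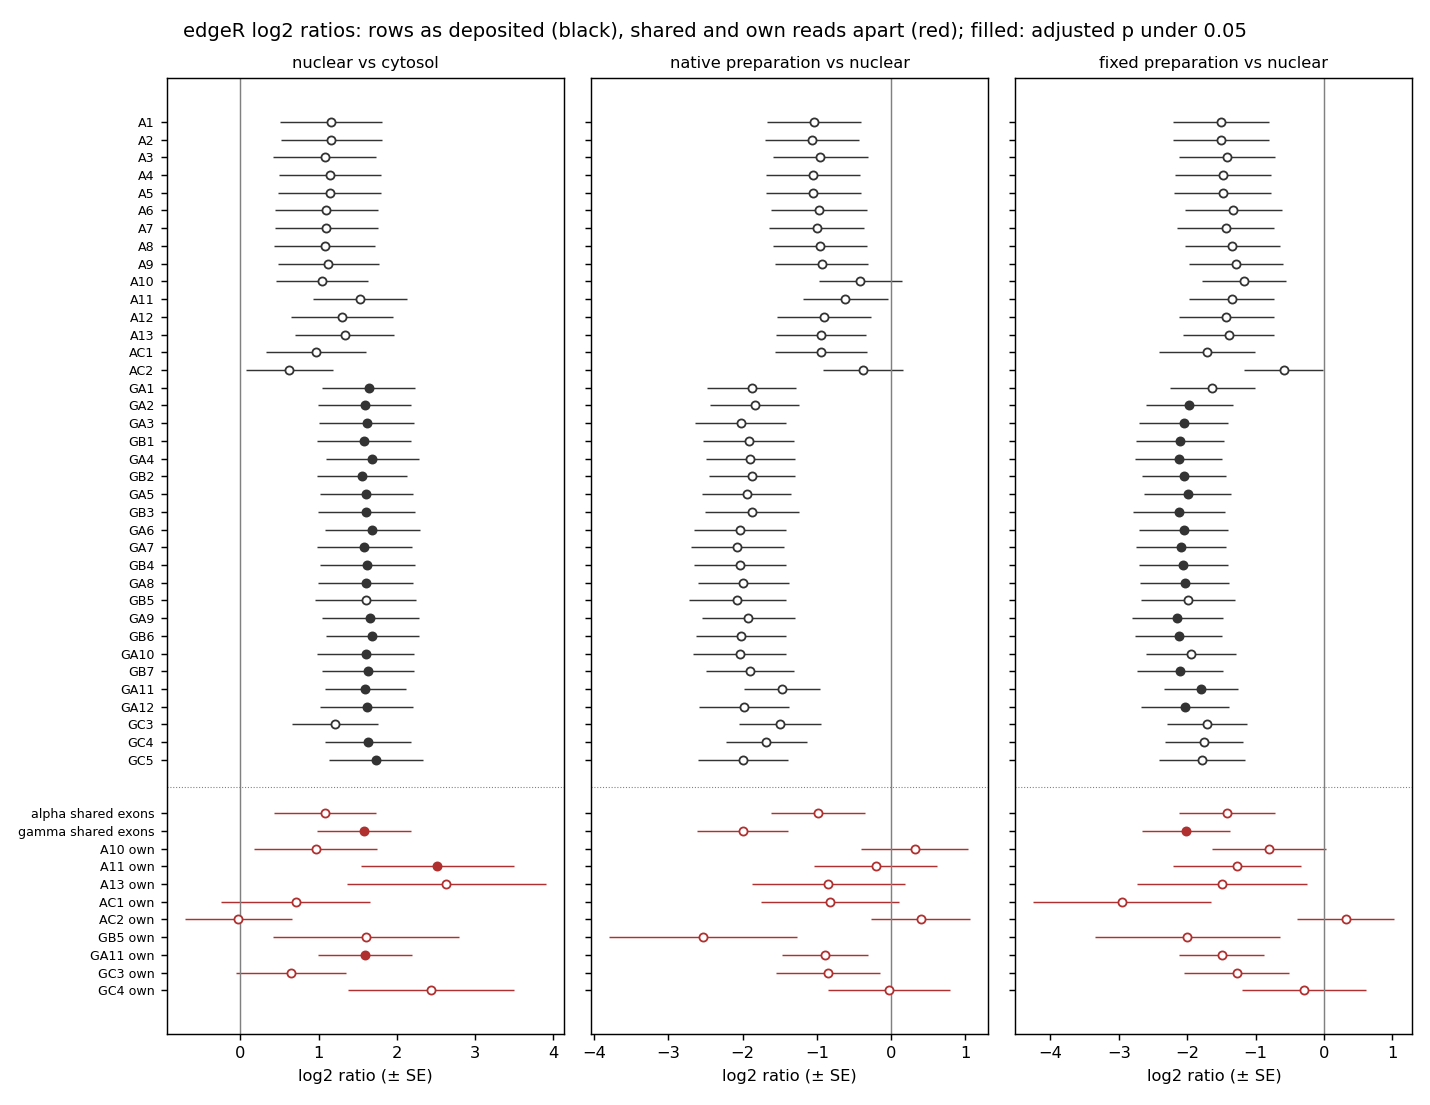
Log2 ratios with their standard errors (horizontal axis) from edgeR for the 37 rows tested (black) and for the constant exons and own reads as separate rows (red), in 3 comparisons; filled points passed an adjusted p under 0.05, and the own reads of PCDHGC5, at 0 in cytosolic RNA, are not drawn. The gamma rows lie together near 1.6 for nuclear against cytosolic RNA and near -2 for both labelled preparations against nuclear RNA, while the own reads are spread more widely.

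The labelled preparations were compared with the nuclear fraction to ask whether these RNAs were more or less abundant in RNA recovered by labelling near the lamina. In the fixed preparation 16 of 22 gamma rows were called lower than in nuclear RNA by edgeR, beside 7.81% of all genes, and 0 of 15 alpha rows were called. The gamma rows repeat the constant exons, at 20 and 12 counts in the fixed libraries. They are largely a single measurement, so the 16 calls are not calls of separate genes. The gamma median was -2.04, with a range of -2.15 to -1.63, and the alpha median -1.42, beside -0.04 for all genes. PCDHGA9 had the largest fall, from 19.0 ± 8.61 to 4.33 ± 0.638 normalised CPM (SD, n = 2), a log2 ratio of -2.15 (SE 0.66, adjusted p = 0.0418). PCDHGA4, PCDHGB6, PCDHGB3 and PCDHGB7 followed at -2.13, -2.13, -2.12 and -2.11, and PCDHGA11 fell by 1.80 (SE 0.54, adjusted p = 0.0383). Above the lowest gamma row PCDHGA9 had 1 read in each fixed library, so the order of these rows says little about single genes. MALAT1 and NEAT1 were also called lower in the fixed preparation, at -2.90 and -3.03 (edgeR adjusted p = 0.0166 and 0.0193). ACTB was called higher, at 1.39, and GAPDH and EEF1A1 were not called. In the native preparation MALAT1 and NEAT1 were at -0.63 and -1.89, not called, and ACTB was called at 1.48. Whether the gamma rows differ from these genes was not tested.

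Among the C-type genes, PCDHGC3, PCDHGC4 and PCDHGC5 were not called in the fixed preparation, at -1.72, -1.76 and -1.78 (edgeR adjusted p = 0.0577, 0.0502 and 0.0659). With the constant exons as 1 row, that row was the 1 of 12 called, at -2.02 (SE 0.65, adjusted p = 0.0465), beside 7.77% of all genes. PCDHAC2 was at -0.59 as deposited and at 0.32 (SE 0.71) on its own reads, neither called. The gamma calls fell to 0 without nuclear replicate 1, nuclear replicate 2 or fixed replicate 1, and without fixed replicate 2 there were 25 calls, 22 gamma and 3 alpha. The fit of the 4 libraries alone, and scaling by total counts, also gave 0.

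In the native preparation no clustered protocadherin was called against nuclear RNA by edgeR, beside 7.31% of all genes in either direction. The gamma median was -1.93 and all 22 gamma rows had an unadjusted p under 0.05, with adjusted p from 0.0578 to 0.0980. These rows repeat the constant exons, at 23 and 40 counts in the native libraries, so they are largely 1 measurement rather than 22. PCDHGB5 had the largest difference, -2.07 (SE 0.66, adjusted p = 0.0671). Its normalised CPM was 19.7 ± 10.1 in nuclear RNA and 4.74 ± 2.88 in the preparation (SD, n = 2). PCDHGA11 and PCDHGC3 had the smallest among the gamma genes, -1.47 and -1.50. These rows stood near the threshold, since the DESeq2 Wald test called 18 and the fit of the 4 libraries alone called 22. Leaving out either fixed library, which is not part of this comparison but of the shared spread, gave 22 calls, leaving out cytosolic replicate 1 gave 1 and cytosolic replicate 2 gave 4.

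The alpha rows in the native preparation had a median of -0.95 against nuclear RNA, and 0 had an unadjusted p under 0.05. On own reads PCDHA10 was at 0.32 (SE 0.72) and PCDHAC2 at 0.40 (SE 0.67), while the gamma constant exons were at -2.00 (SE 0.61, edgeR adjusted p = 0.0620). The own reads of PCDHGA11 were at -0.89 (SE 0.57), those of PCDHGC3 at -0.85 (SE 0.70) and those of PCDHGC4 at -0.03 (SE 0.82). Those of PCDHGB5 and PCDHGC5 were at -2.53 (SE 1.26) and -2.02 (SE 1.09). None of these rows was called.

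No clustered protocadherin was called between a labelled preparation and cytosolic RNA. By edgeR, 0 of 37 rows were called in the native preparation, beside 13.8% of all genes in either direction, and 0 in the fixed preparation, beside 0.673%. None of these deposited rows had an unadjusted p under 0.05, and the DESeq2 Wald test called 0 in both. The gamma medians were -0.32 and -0.44 and the alpha medians 0.12 and -0.26. The largest value of a deposited row was that of PCDHA11 in the native preparation, 0.91 (SE 0.61, adjusted p = 0.318). On own reads 2 rows had an unadjusted p under 0.05 in the native preparation and 1 in the fixed one, with 0 called. In the native preparation these were PCDHA11 at 2.31 (SE 0.98) and PCDHGC4 at 2.41 (SE 1.04, edgeR adjusted p = 0.122 and 0.130). In the fixed one it was PCDHGC5 (edgeR adjusted p = 0.144), given without a fold since its cytosolic own reads are 0 by construction. The ratios of PCDHA11 and PCDHGC4 are uncertain too. Cytosolic own reads were 8 and 0 for PCDHA11, the 0 by construction, and 1 and 2 for PCDHGC4, under the floor. Between the 2 preparations 0 rows were called, beside 0% of all genes, with no unadjusted p under 0.05 and 0 calls by the Wald test. These comparisons share libraries, so their values stand side by side and are not independent.

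Nuclear replicate 1 lay above nuclear replicate 2 in all 3 clusters, by 2.91 times in the alpha constant exons, 1.98 times in the gamma constant exons and 6.61 times in the beta sum, with Wilson intervals that did not overlap. Cytosolic replicate 1 lay 5.02 times above replicate 2 in the gamma constant exons, and native replicate 2 lay 2.48 times above replicate 1, again beyond the intervals. The table of cytosolic replicate 1 was kept as labelled, although its header pairs an input named for that library with an output named for nuclear replicate 1, and without it 22 members were called in nuclear against cytosolic RNA. Among the neighbouring genes, TAF7, a subunit of the general factor TFIID whose gene lies between the beta and gamma clusters, was 1.26 times higher in nuclear replicate 1. DIAPH1, an actin-nucleating formin, and HDAC3, a histone deacetylase, next to the gamma cluster, were 1.20 times higher in replicate 2, while the pseudogenes PCDHGB8P and PCDHB19P had 16 and 2, and 7 and 1 counts in nuclear replicates 1 and 2. The summed non-clustered protocadherins and related large cadherins stood at 2063 and 1303 CPM in nuclear replicates 1 and 2. The part of this library, and of the neuronal marker RBFOX3, in the gamma calls was not tested beyond the values without each library.

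TAF7 had 387 and 316 counts in the nuclear, 905 and 519 in the cytosolic, 898 and 1076 in the native preparation and 406 and 163 in the fixed libraries. Its log2 ratio was -1.01 in nuclear against cytosolic RNA (SE 0.30, edgeR adjusted p = 0.0158) and 1.14 in the native preparation against nuclear RNA (SE 0.30, adjusted p = 0.0426). In the fixed preparation it was 0.24 against nuclear RNA (adjusted p = 0.602), which was not called. LOC100505658, which lies within DIAPH1 on the opposite strand, had 80 and 126 counts in the nuclear, 5 and 0 in the cytosolic, 19 and 12 in the native preparation and 1 and 9 in the fixed libraries. It was called higher in nuclear than in cytosolic RNA (adjusted p = 0.00141). Against nuclear RNA it was called lower in the native preparation, at -3.17 (SE 0.79, adjusted p = 0.0342), and in the fixed one, at -3.55 (SE 0.89, adjusted p = 0.0209). Counting ignored strand, so its reads and those of DIAPH1 cannot be told apart.

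The non-clustered protocadherins and large cadherins, of which 19 of 21 were tested, were higher in nuclear than in cytosolic RNA for 16 genes and lower for 0, beside 26.1% and 21.2% of all genes, with a median of 1.48. FAT1, the most abundant, had 5367 and 3098 counts in nuclear and 2255 and 1380 in cytosolic RNA, a log2 ratio of 1.20 (SE 0.33, edgeR adjusted p = 0.00942). PCDH9, a protocadherin of a single locus, had 1.56 (SE 0.30, adjusted p = 0.00167). In the native preparation their median against nuclear RNA was 0.02, beside -1.93 for the gamma rows and -0.95 for the alpha rows, with 0 called. Against the cytosolic fraction 11 were called higher in the native preparation, beside 6.99% of all genes, while no clustered gene was. The counts were unlike in size, which affects how readily a row is called. In native replicate 1 FAT1 had 7318 counts and PCDH12, also called, 55, beside 74 for PCDHGA11. FAT1 and FAT3 were called lower in the fixed preparation than in nuclear RNA, 2 of 19 beside 7.81%. Whether the 2 families differ in these changes was not tested.

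Of the 27 genes tested that are known to act on the clustered promoters, 6 were lower in nuclear than in cytosolic RNA, a share close to the 21.2% of all genes, and 0 were higher, beside 26.1%. The 6 were CTCF, which binds the promoters, at -1.08 (SE 0.27, edgeR adjusted p = 0.00579), the cohesin subunits RAD21 at -2.17 (SE 0.34, adjusted p = 8.19e-04) and STAG2 at -1.01, the histone methyltransferase EHMT2 at -1.52, its partner WIZ at -1.39 and the corepressor TRIM28 at -1.30. RAD21, EHMT2 and WIZ were called higher in the native preparation than in nuclear RNA, beside 3.87% of all genes. These 3 with EHMT1 and ZNF274 were called higher in the fixed preparation, beside 9.63%. SMCHD1, a repressor of these clusters, was at 0.25 between the fractions and was not called.

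Of 30 partners and processing enzymes of the proteins, 5 were called higher in nuclear RNA and 17 lower, beside the same 26.1% and 21.2% of all genes, with a median of -0.91. Among the higher ones were ADAM10, which sheds the extracellular part, at 1.10, NCSTN, a gamma-secretase subunit, at 1.49, and RET, a receptor that associates with protocadherins, at 1.86. Among the lower ones were WASF2 at -1.64 and NCKAP1 at -1.28, members of the WAVE complex that the tails bind, and the GTPase RAC1 at -1.83.

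The locus lay outside the lamina-associated domains of HCT116. In G1, S and G2, 0 of 53 genes had a base in a domain, beside 7.94%, 6.81% and 9.51% of the 27264 genes placed on 1 chromosome. The nearest domain on the alpha side ended at 136900000 in all 3 stages, 3.27 Mb before PCDHA1 (hg19). On the gamma side the nearest one started at 151400001 in G1, 10.5 Mb away, and at 151200001 in S and G2, 10.3 Mb away. The stretch without a domain was thus 14.5 Mb in G1 and 14.3 Mb in S and G2, where the median stretch between domains was 2.9, 3.5 and 2.6 Mb. As long or longer were 39 of 354 stretches in G1, 41 of 279 in S and 41 of 364 in G2. The lists hold no scores or replicates, so these counts have no error and no test, and the genes of 1 locus are 1 observation rather than 53. Domains and RNA were measured in different cell lines, and the position of the locus in HEK293FT was not analysed here.

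**Figure D4:**
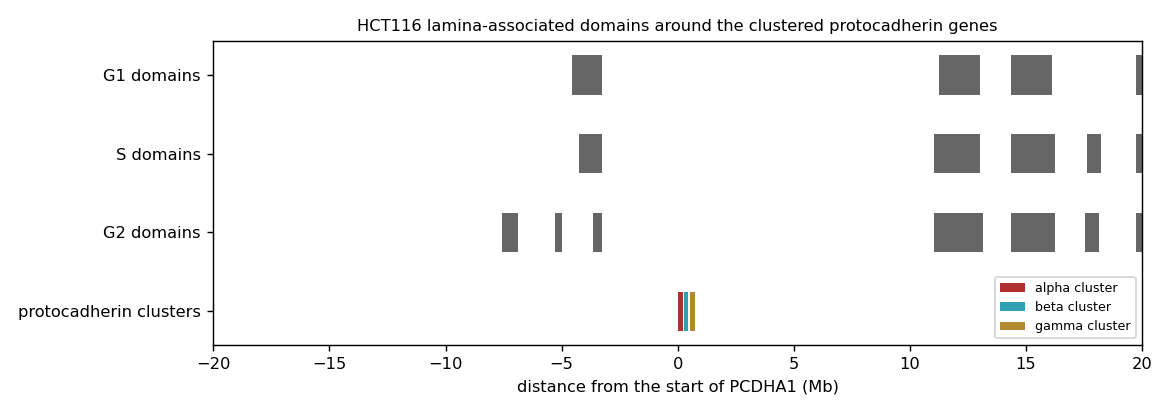
Domains of HCT116 in G1, S and G2 (grey bars) and the 3 protocadherin clusters (coloured bars) by distance from the start of PCDHA1 in Mb (horizontal axis). The clusters fill 0.727 Mb in a stretch with no domain from 3.27 Mb before them to over 10 Mb after them in each stage.

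Some relatives lay inside domains. PCDH11X, PCDH15, PCDH17 and FAT3 lay inside with 100% of their span in all 3 stages, PCDH19 lay inside with 45.0% in G1 and S and 0% in G2, and the other 16 of the 21 had no base in a domain.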

How the data were processed

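Counts per gene symbol were deposited by the authors for 8 HEK293FT libraries. Per the file headers they were made with featureCounts of Subread 1.5.2 on the RefFlat annotation, ignoring strand and counting a read for every gene it overlapped. The submitters' processing notes name hg19, TopHat2 2.1.1 and Bowtie2 2.3.2. The 3 domain lists are the authors' deposited intervals on hg19, without scores; their caller is not given in the sources used here. The 4 K562 DNA samples, whose title and material disagree, and the H3K9me3 files were not used.

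The filter filterByExpr, run by group, kept 16504 of 27630 genes and 37 of the 53 members. The count test was that of edgeR 4.0.16 in R 4.3.3 (TMM factors, quasi-likelihood test, 1 fit of 8 libraries, no block, Benjamini-Hochberg over all genes tested in each of 6 contrasts). The code was tested on simulated data. Normalised CPM uses TMM factors. Shares and CPM of a single library carry 95% Wilson intervals. Alternatives were DESeq2 1.42.0 size factors or Wald test, total counts, no filter or at least 10 counts in every library (24 members), the 4 libraries compared, a replicate block, shared and own reads as separate rows, and leaving out each library. Replicate numbers were not treated as pairs, since the labels do not tie them to a shared culture.

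Members and lists were chosen with earlier results of these data known. Named members were those called (with over 10 calls in a contrast, the 5 largest changes each way per cluster), the 3 with the highest mean CPM per cluster and the C-type genes.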

Additional observations from a re-analysis of the deposited data

How the results depend on the processing

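For the named genes, 696 values were computed under an alternative, of which 509 kept direction and side of the threshold, 112 gained a call, 64 lost one and 11 turned direction. Members called in nuclear against cytosolic RNA numbered 20, and 22 with the replicate block, 1 with total counts, 4 with shared and own reads as separate rows, and 0 to 24 when 1 library was left out. The native preparation against nuclear RNA had 0, but 22 without a filter, 19 with at least 10 counts in every library, 18 by the DESeq2 Wald test, 22 in the fit of 4 libraries and 0 to 22 with 1 library left out. The fixed preparation against nuclear RNA had 16, but 17 with the replicate block, 0 with total counts, 0 in the fit of 4 libraries, 1 with shared and own reads as separate rows, and 0 to 25 with 1 library left out. The other 3 comparisons had 0 calls under each alternative run. Direction turned for 4 alpha genes. In nuclear against cytosolic RNA PCDHAC2 was at -0.024 on own reads, and leaving out 1 library gave -0.16 (nuclear replicate 1) to 1.16 for PCDHAC2 and -0.11 (the same library) to 1.56 for PCDHAC1. In the native preparation against nuclear RNA, PCDHA10 was at 0.32 and PCDHAC2 at 0.40 on own reads. With 1 library left out, PCDHA10 ran there from -0.97 to 0.56, PCDHA11 from -1.19 to 0.42, PCDHAC1 from -1.53 to 0.13 and PCDHAC2 from -0.86 to 0.41, each highest without nuclear replicate 1. In the fixed preparation PCDHAC2 was at 0.32 on own reads and ran from -1.08 to 0.19, again highest without that library. None of these was called, and the cause was not tested. Total counts moved the median log2 ratio of all genes by 0.28 in the native and 0.17 in the fixed preparation against nuclear RNA, and higher calls then made up 87.5% in place of 52.9% and 78.7% in place of 55.2%. Deviations of same-numbered libraries correlated across genes at 0.27 between nuclear and cytosolic RNA and at 0.32 between the native and fixed preparations. Between the other groups they correlated at -0.0050 to 0.16. The numbers were not taken as pairs because the labels do not tie them to a shared culture, and whether they share a preparation was not tested. Counts of members in a domain stayed at 0 when 50% of the span, the whole span or the start had to lie inside. Depth limits the beta genes most, with at most 13 counts in a library.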

Other observations

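The pseudogenes of the beta cluster, which were not among the genes described, were as sparse as the beta genes. PCDHB18P had 4 and 1 counts in the nuclear, 12 and 0 in the cytosolic, 7 and 2 in the native preparation and 2 and 0 in the fixed libraries. PCDHB19P had 7 and 1, 0 and 0, 7 and 2, and 2 and 0 in the same order, and PCDHB17P had 1 count in native replicate 1 alone. The vault RNA gene VTRNA1-3, which lies before the alpha cluster, had 187 and 159, 621 and 586, 376 and 27, and 526 and 86 counts. Its log2 ratio in nuclear against cytosolic RNA was -1.87 (SE 0.70, edgeR adjusted p = 0.0413).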
